A study of Mus musculus with 7 samples.

Results

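The CD28 receptors and their B7 ligands are the proteins that checkpoint inhibitors and abatacept act on. The genes examined were those encoding the receptors CTLA-4, CD28, ICOS and PD-1 (Ctla4, Cd28, Icos and Pdcd1) and the ligands CD80, CD86, ICOS ligand, PD-L1 and PD-L2 (Cd80, Cd86, Icosl, Cd274 and Pdcd1lg2). They were chosen by name, 9 of 23420 gene rows. All 9 were found, and all 9 passed the filter on low values. RNA came from the hearts of 7 untreated mice aged 3 to 6 weeks, labelled as whole heart in one field and as ventricle in another. The 4 control hearts were Ctla4+/+;Pdcd1-/- and the 3 ICI-myocarditis hearts were Ctla4+/-;Pdcd1-/-, where ICI stands for immune checkpoint inhibitor. Every animal, control or not, was thus labelled as lacking Pdcd1, and the groups differ by 1 copy of Ctla4. The labels give a genotype but neither the deleted exons nor the strain.

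CD28 and CTLA-4 share the ligands CD80 and CD86, which are carried mainly by dendritic cells, macrophages and B cells. CD28 delivers the costimulatory signal a T cell needs beside its antigen receptor, while CTLA-4 binds the same ligands more tightly and removes them from the cell that presents them. ICOS, induced on activated T cells, has a ligand of its own that is also found outside the blood lineage. PD-1, induced by antigen receptor signalling, recruits phosphatases when it meets PD-L1, which many cell types make under interferon, or PD-L2, which is mostly restricted to dendritic cells and macrophages. Abatacept, named in the study's title, is a CTLA-4 fusion protein that occupies CD80 and CD86.

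Depth and library quality bear on the low members. Read counts recovered from the table summed to between 20931730 and 39037176 per library. All 10 heart muscle markers were present and none passed the test between the groups. Their summed level was 3948729 to 5074403 normalized counts in controls 1, 3 and 4, 2478213 in control 2 and 1888232 to 2988164 in ICI-myocarditis, with a median log2 fold change of -0.79. Every control other than control 2 thus lay above every ICI-myocarditis library, and the part of this in the results was not tested. Of 4 atrial markers, 1 of 3 tested was called higher (Nppa), with sums of 6389 to 8834 and 38541 to 174644. These sums were almost wholly Nppa, at 6265 to 8778 normalized counts in controls and 38489 to 174572 in ICI-myocarditis. Myl7 and Myl4 gave log2 fold changes of 0.14 and -0.14 (adjusted p = 0.935 and 0.803 by limma). Sln, at most 3.7 normalized counts, was not tested. One library stood apart. On the first principal component of log2 values, which held 68.6% of the variance, control 2 scored 2.25, between the other controls (-96.7 to -61.2) and ICI-myocarditis (58.9 to 105). It was the highest control for all 9 genes. Results are therefore given with and without it where it matters.

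All 9 genes were higher in every ICI-myocarditis heart than in any control heart, and 8 of them passed the test. Icosl was the exception. The background is 11.7% of 15258 tested genes called higher by limma at an adjusted p below 0.05, and 17.3% of tested genes with every ICI-myocarditis library above every control library. The share of tested genes called lower was 4%. The median log2 fold change was 2.40 over the 9 genes and -0.02 over all genes tested. The genes were picked with earlier results of these data known, so these counts describe them and are not independent evidence. Positive fold changes mean higher in ICI-myocarditis. They were taken as differences of mean log2(normalized count + 1), where the added 1 shrinks the change of low genes. For Pdcd1 and Icos, with control 2 far above the other controls, the fold on this scale (93.1 and 25.3) is nevertheless larger than the ratio of the group means (20.1 and 15.7). In bulk tissue, more cells of a type and more RNA per cell cannot be told apart.

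**Figure D1:**
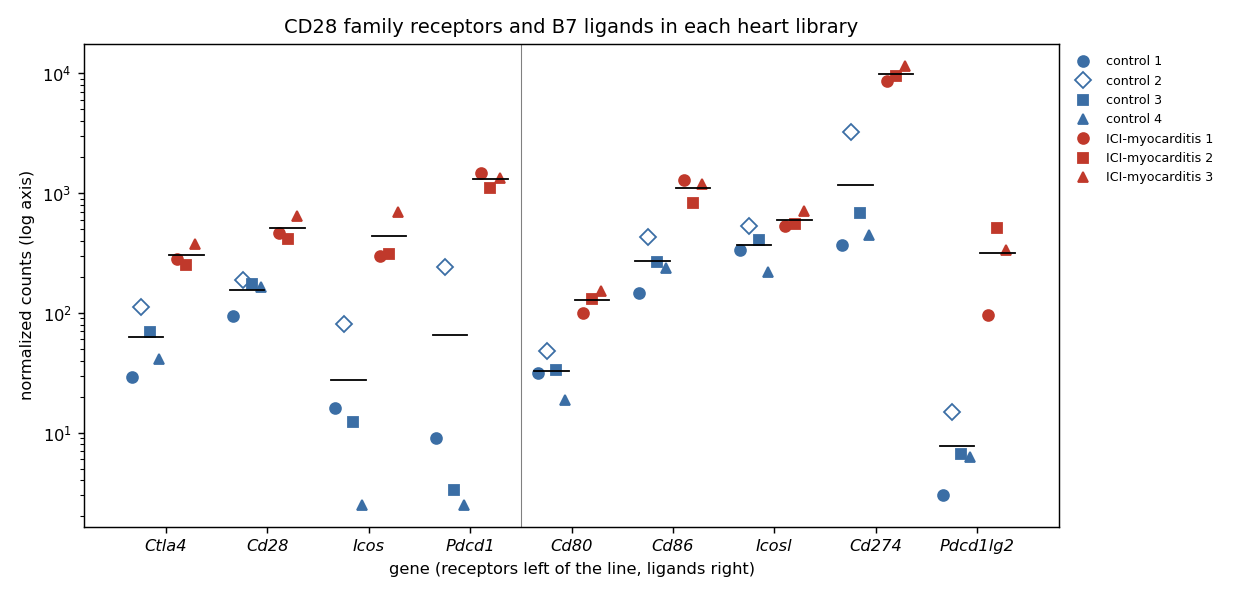
Normalized counts (log axis) of the 4 receptor genes and 5 ligand genes in each of the 7 heart libraries, with black bars at the arithmetic group means and control 2 as an open diamond. The ICI-myocarditis points lie above the control points for all 9 genes, by the least for Icosl, and control 2 is the highest control throughout.

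Among the receptors, Pdcd1 showed the widest separation. Controls 1 to 4 had 9.07, 244, 3.35 and 2.5 normalized counts of it, against 1481, 1096 and 1340 in ICI-myocarditis 1 to 3. In reads, controls 1, 3 and 4 held 9, 3 and 2 and control 2 held 198, so the control level depends almost wholly on that 1 library. The log2 fold change was 6.54 (SE 1.26, 95% interval 3.70 to 9.38, adjusted p = 0.00959 by limma), and 5 of the 15258 tested genes, Pdcd1 included, had one at least as high. Without control 2 it was 7.92 (adjusted p = 1.01e-05 by limma). edgeR's quasi-likelihood test on the recovered reads gave 4.29 and missed the threshold (adjusted p = 0.0529). The rise was seen in animals labelled Pdcd1-/-. A count over a whole gene cannot place its reads on exons, so it neither checks the label nor gives the level of a functional transcript.

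Icos, the inducible costimulator, stood at 16.1, 80.2, 12.3 and 2.5 normalized counts in controls and at 298, 311 and 702 in ICI-myocarditis. The lowest ICI-myocarditis library was 3.71 times the highest control, and ICI-myocarditis 3 lay well above the other two of its group. The log2 fold change was 4.66 (SE 0.887, adjusted p = 0.00918 by limma), and 5.44 without control 2. Control 4 rests on 2 reads, and the value was 3.93 without that library, 3.94 with edgeR and 3.97 with DESeq2 on recovered reads.

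Ctla4 rose in the animals labelled as having 1 copy of it. Its normalized counts were 29.2, 113, 69.2 and 41.3 in controls, which carry both copies, and 282, 251 and 373 in ICI-myocarditis. The log2 fold change was 2.40 (SE 0.444, 95% interval 1.40 to 3.40, adjusted p = 0.00849 by limma), and it passed in all 18 alternatives run. The summed level therefore does not show the lost copy, and the label could not be checked on it.

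Cd28, the constitutive receptor of T cells, changed least among the 4. Its normalized counts were 93.8, 190.0, 174 and 166 in controls and 467, 412 and 650.2 in ICI-myocarditis. Here control 2 was barely above controls 3 and 4, by 1.09 times the higher of them, and control 1 was the low one. The log2 fold change was 1.72 (SE 0.298, adjusted p = 0.00685 by limma).

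T cell markers moved with these receptor genes. All 12 T cell markers were called higher, against 11.7% of all genes tested, with a median log2 fold change of 4.69. Their sum was 549 to 946 normalized counts in controls 1, 3 and 4, 2594 in control 2 and 10073 to 15733 in ICI-myocarditis, and none was at 0 throughout. The part of T cell number in the receptor differences was not tested beyond the ratios to CD3 genes given further on. Regulatory T cells carry CTLA-4 constitutively, and 4 of their 6 markers were called higher. The sum of those markers was 591 to 946 in controls and 1592 to 2065 in ICI-myocarditis. Ikzf2 alone held 365 to 497 of it in controls and 779 to 978 in ICI-myocarditis. The 2 uncalled markers were Foxp3 and Il2ra. Foxp3, the defining factor of regulatory T cells, was at 24.2, 64.1, 19 and 5 in controls and 87, 81.9 and 196 in ICI-myocarditis (log2 fold change 2.42, adjusted p = 0.052 by limma). Il2ra overlapped between the groups, at 110.1 to 154 in controls and 117, 162 and 309 in ICI-myocarditis (0.51, adjusted p = 0.362 by limma). Follicular helper cells use ICOS, and 3 of their 5 markers were called, Il21, Sh2d1a and Pou2af1. Cxcr5 (log2 fold change 0.75, adjusted p = 0.187 by limma) and Bcl6 (0.23, adjusted p = 0.59 by limma) of the same list were not.

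Among the ligands, the PD-1 ligands separated the groups most. Cd274 was at 366, 3211, 680.0 and 444 normalized counts in controls and at 8671, 9475 and 11526 in ICI-myocarditis. Control 2 was 4.72 times the next control but still below the lowest ICI-myocarditis library by a factor of 2.7. The log2 fold change was 3.67 (SE 0.642, adjusted p = 0.00712 by limma), and 4.35 without control 2.

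Pdcd1lg2 was near the floor in controls, at 3.02, 14.8, 6.7 and 6.26 normalized counts from 3 to 12 reads, and at 96.2, 510.2 and 338 in ICI-myocarditis. It had the lowest p of the 9 genes, with a log2 fold change of 5.05 (SE 0.643, 95% interval 3.60 to 6.50, adjusted p = 0.00316 by limma). It also varied most within ICI-myocarditis, where library 1 was the lowest. For Cd86 that same library was the highest of the 3.

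Cd274 and Pdcd1lg2 are neighbours on the plus strand of chromosome 19 (GRCm38), Cd274 at chr19:29367455-29388095 and Pdcd1lg2 at chr19:29410919-29471161, 22.8 kb apart. Their promoters are shown because both genes of this adjacent pair rose, beside those of Cd80, which rose less, and Icosl, which did not pass. Each is the 250 bases before the start of a reference promoter entry (GRCm38.p6), 5′ to 3′ on the gene's strand. That start need not be the outermost start of the gene. Gene intervals in the text are those of GENCODE M21. The Cd80 window falls inside its interval, and the Icosl window overlaps the start of its own. In RefSeq the Cd274 interval starts at chr19:29362107, so the Cd274 window lies inside it, as the Cd80 window does in RefSeq's Cd80 interval. Capitals mark matches to a searched motif.
Cd274, chr19:29367188-29367437, plus strand: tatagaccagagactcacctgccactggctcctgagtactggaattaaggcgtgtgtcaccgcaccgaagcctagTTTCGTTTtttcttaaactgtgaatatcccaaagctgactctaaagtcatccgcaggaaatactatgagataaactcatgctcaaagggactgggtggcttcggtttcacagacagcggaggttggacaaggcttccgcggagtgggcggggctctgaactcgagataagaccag
Pdcd1lg2, chr19:29410669-29410918, plus strand: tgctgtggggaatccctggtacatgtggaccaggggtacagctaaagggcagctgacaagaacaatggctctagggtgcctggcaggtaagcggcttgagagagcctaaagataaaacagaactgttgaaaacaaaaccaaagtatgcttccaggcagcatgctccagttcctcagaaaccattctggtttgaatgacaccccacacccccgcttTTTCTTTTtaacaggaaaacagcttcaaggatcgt
Cd80, chr16:38458683-38458932, plus strand: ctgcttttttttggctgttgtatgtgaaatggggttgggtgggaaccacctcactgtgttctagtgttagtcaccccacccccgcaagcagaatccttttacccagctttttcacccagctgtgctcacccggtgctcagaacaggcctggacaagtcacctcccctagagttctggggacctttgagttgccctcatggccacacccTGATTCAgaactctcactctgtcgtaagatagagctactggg
Icosl, chr10:78069118-78069367, plus strand: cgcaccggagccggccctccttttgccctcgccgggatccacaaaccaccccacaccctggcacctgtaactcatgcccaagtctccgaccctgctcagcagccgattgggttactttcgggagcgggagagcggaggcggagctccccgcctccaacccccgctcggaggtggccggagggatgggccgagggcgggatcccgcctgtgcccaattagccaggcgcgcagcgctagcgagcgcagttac

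A promoter entry was matched for 6 of the 9 genes, Ctla4 and Pdcd1 being the other two. Searched on both strands were the STAT motif TTCNNNGAA, the interferon regulatory factor (IRF) core AANNGAAA, a longer IRF element that contains this core, a kappaB motif and the AP-1 motif TGANTCA. The IRF core was added after the longer element had given no match. It was found on the minus strand 175 bases before the start of the Cd274 entry, 35 before that of Pdcd1lg2 and 28 before that of Pdcd1. It is present in 21.3% of 32851 promoters of this length. The AP-1 motif was found 42 bases before the start of the Cd80 entry and is present in 6.75% of promoters. The STAT motif, present in 7.02% of promoters, the kappaB motif (1.41%) and the longer IRF element (2.98%) had no match in the 6 windows. A match describes letters and is not evidence of a bound site.

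The ligands of CD28 and CTLA-4 rose by similar amounts. Cd80 was at 31.3, 48.1, 33.5 and 18.8 normalized counts in controls and at 100.3, 130.4 and 152 in ICI-myocarditis, with a log2 fold change of 1.98 (SE 0.375, adjusted p = 0.00897 by limma). Cd86 was at 147, 433, 267 and 236 in controls and at 1288, 831 and 1181 in ICI-myocarditis, with a log2 fold change of 2.10 (SE 0.343, adjusted p = 0.00563 by limma). For both genes the lowest ICI-myocarditis library was about as far above the highest control, 2.08 times for Cd80 and 1.92 times for Cd86. Cd80 rests on 15 to 39 reads in controls.

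Icosl, the ligand of ICOS, did not pass. It was at 333, 528, 408 and 218 normalized counts in controls and at 535, 554 and 709.8 in ICI-myocarditis, so control 2 nearly reached the ICI-myocarditis libraries, the lowest of which was 1.01 times its value. The log2 fold change was 0.75 (SE 0.297, 95% interval 0.08 to 1.42, adjusted p = 0.126 by limma). Of 18 alternatives, only the one without control 2 called it (0.94, adjusted p = 0.036 by limma), with adjusted p from 0.036 to 0.373 over all of them.

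Markers of cells that can carry these ligands moved as follows, and their part in the ligand differences was not tested beyond the ratios below. Over all genes tested 11.7% were called higher. Of 12 macrophage and monocyte markers 11 were called higher, and their sum went from 14192 to 20342 normalized counts in controls to 58657 to 91560 in ICI-myocarditis. Of 10 dendritic cell markers 6 were called higher, and the sums of all 10 overlapped, at 2337 to 5626 and 4489 to 7067. In controls these sums were mostly Fscn1 (1325 to 3170) and Zbtb46 (517 to 1432), which did not pass (log2 fold change -0.23 and -0.47, adjusted p = 0.732 and 0.35 by limma). Each of the 6 called genes was higher in every ICI-myocarditis library than in any control, as were 17.3% of all genes tested. B cell markers, 2 of 7 tested called higher, summed to 229 to 574 and 491 to 953. Of 8 endothelial markers 4 were called lower, against 4% of all genes tested, with sums of 31639 to 81190 and 23290 to 30024. The 6 thymus markers summed to 41.3 to 78.9 and 52.2 to 64.5, with Foxn1 at 0 in every library. Lymph node stroma genes summed to 32.5 to 207 and 62.4 to 72.5, with Ccl21a and Glycam1 at 0 throughout.

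**Figure D2:**
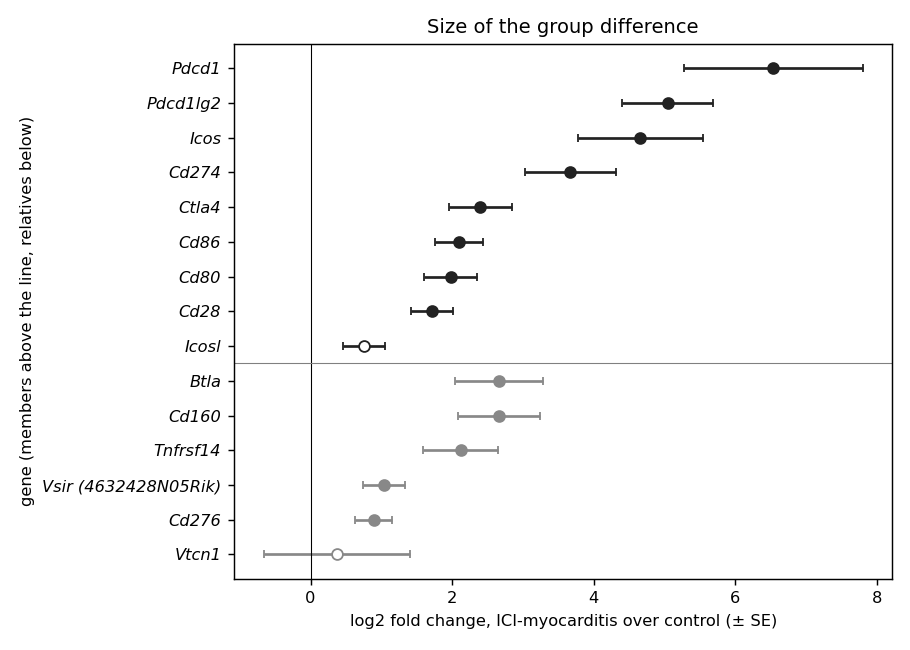
Log2 fold change of ICI-myocarditis over control with its standard error for the 9 genes (black) and for 6 tested relatives of the family (grey), filled where limma's adjusted p was below 0.05. Values run from 6.54 for Pdcd1 to 0.75 for Icosl among the 9, and the open points are Icosl and Vtcn1.

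Levels of different genes were compared as normalized counts per kilobase of exon, with exon lengths from GENCODE M21. In controls Cd274 was the highest at 324 ± 376 (SD, n = 4), followed by Icosl at 80.4 ± 28.2, Cd86 at 74 ± 32.6, Pdcd1 at 33.6 ± 62, Ctla4 at 27.2 ± 16.1 and Cd28 at 25.5 ± 6.97. Cd80 at 8.89 ± 3.25, Icos at 8.1 ± 10.3 and Pdcd1lg2 at 3.92 ± 2.56 were the lowest. Between neighbours in this order, only Cd28 and Cd80 had ranges that did not overlap. In ICI-myocarditis Cd274 stayed first at 2731 ± 406 per kilobase (SD, n = 3) and Pdcd1 came second at 676 ± 101, each apart from the next. Cd86 followed at 301 ± 65.3, and Pdcd1lg2 moved up from last place to stand next at 161 ± 106. Icosl at 129.8 ± 20.8, Ctla4 at 129.6 ± 27.2 and Icos at 127 ± 67 were not distinguishable by their ranges. Cd28 at 83.3 ± 20.4 and Cd80 at 34.5 ± 7.02 came last and did not overlap. PD-L1 transcript was thus the most abundant of the family in both groups, although in controls its range reached down to that of Icosl.

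Ratios between genes of the family asked whether their balance differed. They are log2 ratios of normalized counts within each library, not per length, and so are compared between libraries only. Each group difference was set against all 35 ways to split the 7 libraries (exact permutation test, two-sided), whose smallest possible p is 0.0286, with adjustment over 6 ratios. None of the 6 passed after adjustment. Ctla4 over Cd28 was -1.65, -0.74, -1.32 and -1.99 in controls and -0.72, -0.72 and -0.80 in ICI-myocarditis, a difference of 0.68 (exact permutation p = 0.0857, adjusted 0.129). Control 2 lay among the ICI-myocarditis libraries for this ratio.

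Icos over Cd28 and Pdcd1 over Cd28 were higher in every ICI-myocarditis library than in any control, by 2.94 and 4.82 on the log2 scale (exact permutation p = 0.0571 for each, adjusted 0.114). Icos over Cd28 ran from -5.58 in control 4 to -1.23 in control 2, and from -0.65 to 0.11 in ICI-myocarditis. Pdcd1 over Cd28 was -3.23, 0.36, -5.33 and -5.58 in controls and 1.66, 1.41 and 1.04 in ICI-myocarditis, with control 2 nearest to that group.

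Cd86 over Cd80 overlapped between the groups, at 2.20, 3.14, 2.96 and 3.59 in controls and 3.67, 2.66 and 2.95 in ICI-myocarditis (difference 0.12, exact permutation p = 0.857, adjusted 0.857), and the sign of the difference turned without control 1 (-0.13) or ICI-myocarditis 1 (-0.17). Pdcd1lg2 over Cd274 was -6.51, -7.67, -6.47 and -5.94 in controls and -6.48, -4.21 and -5.09 in ICI-myocarditis (difference 1.39, exact permutation p = 0.171, adjusted 0.206). On this scale ICI-myocarditis 1 lay beside controls 1 and 3, whose Pdcd1lg2 rests on 3 and 6 reads, and ICI-myocarditis 2 and 3 lay above all controls. The difference depended on the added count, at 1.49 with 0.5 and 0.79 with 5 (exact permutation, adjusted p = 0.103 and 0.446). Icosl over Cd86 was lower in every ICI-myocarditis library, at -1.27, -0.59 and -0.73 against 1.17, 0.29, 0.61 and -0.12 (difference -1.35, exact permutation p = 0.0571, adjusted 0.114).

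**Figure D3:**
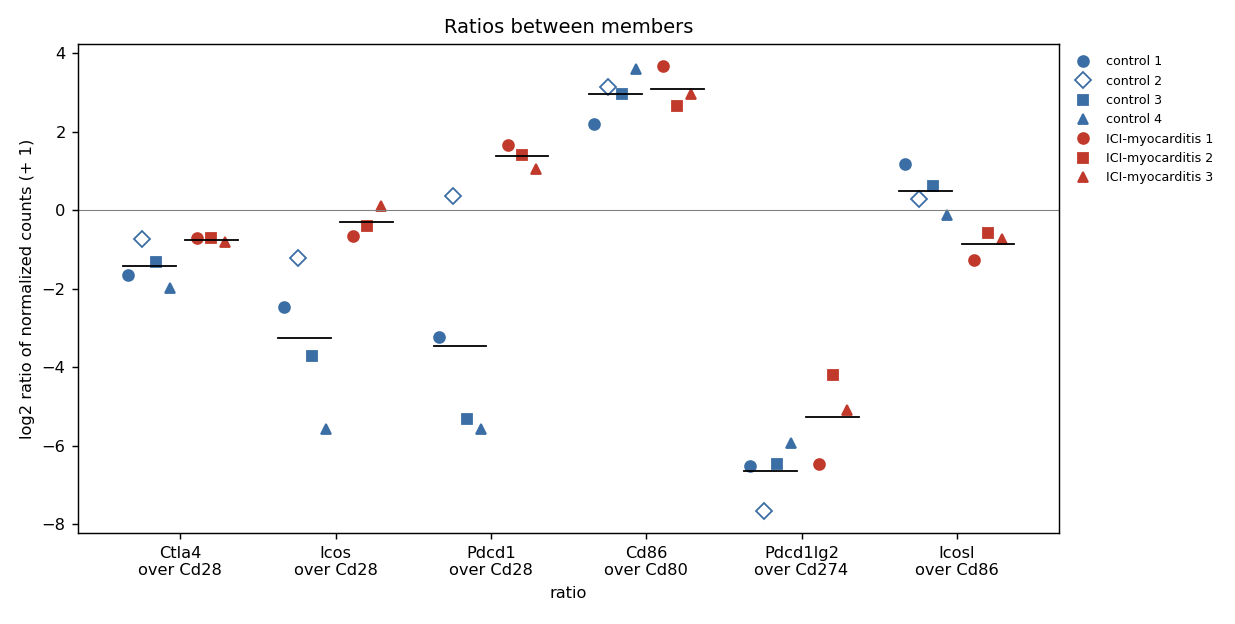
Log2 ratios of normalized counts (each + 1) for 6 pairs of genes in each library, with black bars at group means and control 2 as an open diamond. Groups do not overlap for Icos over Cd28, Pdcd1 over Cd28 and Icosl over Cd86, and overlap for the other 3.

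Each gene was also set against marker genes, the receptors against those of T cells and the ligands against those of macrophages, although macrophages are not the only cells that carry PD-L1 or ICOS ligand. The receptors were divided by the sum of Cd3d, Cd3e, Cd3g and Cd247, which encode the CD3 complex of T cells. That sum was 109.9, 637, 138 and 76.3 normalized counts in controls and 3386, 2933 and 4214 in ICI-myocarditis, whose mean was 14.6 times that of controls. Cd247 alone was 73.6, 143, 90.4 and 47.5 in controls and 447, 386 and 466 in ICI-myocarditis. It thus made up most of the sum in controls 1, 3 and 4, but not in control 2 or ICI-myocarditis. Its log2 fold change was 2.38, against 5.17 for Cd3d, 5.61 for Cd3e and 5.20 for Cd3g, so the mix of the reference differed between the groups. The ligands were divided by the sum of the macrophage genes Cd68, Csf1r, Adgre1 (named Emr1 in the table) and Fcgr1, whose ICI-myocarditis mean was 3.63 times the control mean, at 3981 to 4663 in controls and 10901, 13218 and 22907 in ICI-myocarditis. Such a ratio does not give RNA per cell. None of the 9 ratios passed adjustment over the 9, and here too a single ratio could not have passed on its own.

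Relative to CD3 genes, Cd28 and Ctla4 were lower in every ICI-myocarditis library than in any control. Cd28 over CD3 genes was -0.23, -1.74, 0.33 and 1.11 in controls and -2.86, -2.83 and -2.69 in ICI-myocarditis (difference -2.66, exact permutation p = 0.0571, adjusted 0.129). Ctla4 over CD3 genes was -1.87, -2.48, -0.99 and -0.87 in controls and -3.58, -3.54 and -3.49 in ICI-myocarditis (difference -1.99, exact permutation p = 0.0571, adjusted 0.129). Both ratios were tight in ICI-myocarditis, with SDs of 0.0865 and 0.0422. Icos over CD3 genes overlapped between the groups (difference 0.27, exact permutation p = 0.686, adjusted 0.686), and the sign of its difference turned with a pseudocount of 5 (-0.13), with Cd3e alone as the reference (-0.95) and without control 4 (-0.09). Pdcd1 over CD3 genes was -3.46, -1.38, -5.00 and -4.46 in controls and -1.19, -1.42 and -1.65 in ICI-myocarditis (difference 2.16, exact permutation p = 0.114, adjusted 0.171). In this measure control 2 lay within the ICI-myocarditis range. With Cd3e alone as the reference the difference was 0.93 for Pdcd1 (exact permutation, adjusted p = 0.22), -3.88 for Cd28 and -3.21 for Ctla4 (exact permutation, adjusted p = 0.171 for each).

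Relative to macrophage genes, Pdcd1lg2 was higher in every ICI-myocarditis library, at -10.03, -8.21, -9.16 and -9.10 in controls and -6.81, -4.69 and -6.08 in ICI-myocarditis. The difference of 3.26 had the smallest p the splits allow (exact permutation p = 0.0286, adjusted 0.129). Cd274 was -3.52, -0.54, -2.70 and -3.16 in controls and -0.33, -0.48 and -0.99 in ICI-myocarditis (difference 1.88, exact permutation p = 0.0857, adjusted 0.154), again with control 2 among the ICI-myocarditis values. Cd80 (difference 0.19, exact permutation p = 0.6, adjusted 0.675) and Cd86 (0.31, exact permutation p = 0.457, adjusted 0.588) overlapped between the groups. With Csf1r alone as the reference these differences were 0.64 and 0.76 (exact permutation, adjusted p = 0.214 and 0.257). Icosl was lower in every ICI-myocarditis library (difference -1.04, exact permutation p = 0.0571, adjusted 0.129). With Csf1r alone the Icosl difference shrank to -0.58 (exact permutation, adjusted p = 0.257). Those of Cd274 and Pdcd1lg2 grew, to 2.33 and 3.72 (exact permutation, adjusted p = 0.193 and 0.171). With so few libraries these tests cannot show that any of the ratios is the same in both groups.

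**Figure D4:**
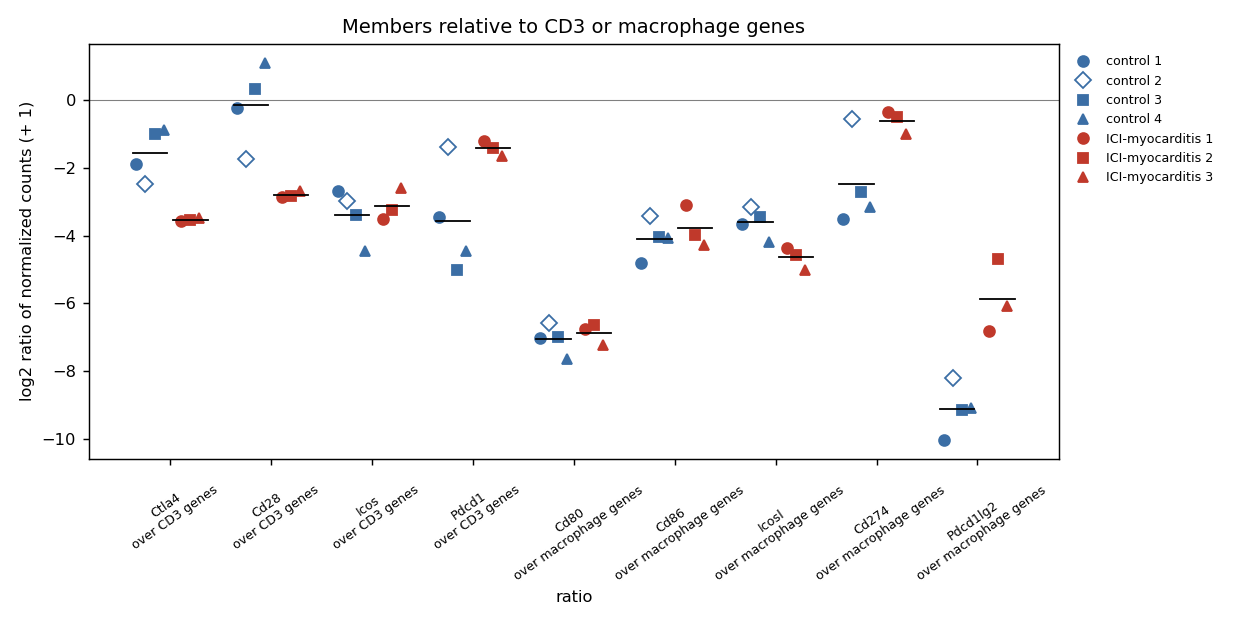
Log2 ratio of each receptor gene to the sum of 4 CD3 genes and of each ligand gene to the sum of 4 macrophage genes in each library, with black bars at group means and control 2 as an open diamond. ICI-myocarditis lies below all controls for Ctla4, Cd28 and Icosl and above all controls for Pdcd1lg2.

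Relatives of the family were read from a list of 9 genes, 6 of which passed the filter and 5 of which were called higher (median log2 fold change 1.58). The share called higher over all genes tested was 11.7%. Btla, an inhibitory receptor related to CD28, rose from 23.2, 109, 36.8 and 12.5 to 188, 188 and 280.4 normalized counts, by 2.66 on the log2 scale (adjusted p = 0.0206 by limma). Its ligand gene Tnfrsf14 rose by 2.12 (adjusted p = 0.0277 by limma), and Cd160, another receptor for that ligand, by 2.66 (adjusted p = 0.0156 by limma). Among further B7 genes Cd276, encoding B7-H3, rose by 0.89 (adjusted p = 0.0491 by limma). Vsir, encoding VISTA and named 4632428N05Rik in the table, rose by 1.04 (adjusted p = 0.044 by limma). Vtcn1, at 0 to 19 normalized counts in all libraries, gave 0.37 (adjusted p = 0.849 by limma), with the sign turned without control 2 (-0.45). Btnl2, Btn1a1 and Btn2a2 were at most 7.4 normalized counts and were not tested. The calls in this list did not hold when 1 library was left out, which also leaves fewer replicates. Without control 1, control 3, ICI-myocarditis 1, 2 or 3, 2, 1, 2, 1 and 0 of the 5 calls were made, and edgeR made 3. Without ICI-myocarditis 3 the log2 fold changes were 2.47 for Btla, 1.91 for Tnfrsf14, 2.56 for Cd160, 0.74 for Cd276 and 0.82 for Vsir.

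Signalling below the receptors was described with 4 lists, beside 11.7% of all genes tested that were called higher. Of 17 genes that act below CD28 and the T cell receptor, 10 were called higher and 0 lower, with a median log2 fold change of 1.99. The called genes are expressed mainly in blood cells, among them Zap70, the kinase of the CD3 complex (5.27, adjusted p = 0.00795 by limma) and the adaptor Lcp2 (3.19, adjusted p = 0.00596 by limma). The uncalled members, named after their values were seen, were Grb2 (0.45), Akt1 (0.19), Akt2 (-0.24), Pik3r1 (0.09), Fyn (0.29), Bcl10 (0.17) and Malt1 (0.76). In that order their adjusted p by limma was 0.204, 0.69, 0.61, 0.879, 0.4, 0.567 and 0.185.

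Of 12 genes for phosphatases and trafficking proteins tied to CTLA-4 and PD-1, 4 were called higher and 0 lower, and the median was -0.10. Over all genes tested the shares were 11.7% higher and 4% lower. Ptpn6, encoding SHP-1, rose by 2.91 (adjusted p = 0.00597 by limma), Cd247 by 2.38 (adjusted p = 0.00422 by limma) and the adaptor gene Sh2d1a by 3.89 (adjusted p = 0.0441 by limma). Ptpn11, encoding the phosphatase SHP-2 that PD-1 recruits, was at 7098 to 13511 normalized counts in controls and 8904 to 9898 in ICI-myocarditis (-0.13, adjusted p = 0.656 by limma). Lrba, which returns CTLA-4 to the cell surface, was at 3590 to 4140 in controls and 2581 to 3090 in ICI-myocarditis, below all controls (-0.48, adjusted p = 0.103 by limma). Ptpn11 and Lrba were chosen after their values were seen. Without ICI-myocarditis 3 the list had 2 calls.

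Of 12 genes that regulate or bind the PD-1 ligands, 4 were called higher and 0 lower, with a median of 0.48. The share of all tested genes called higher was 11.7%. Cd5, a T cell surface gene, rose by 3.63 (adjusted p = 0.0089 by limma). Cmtm6, whose protein protects PD-L1 from degradation and which was chosen after its value was seen, gave 0.52 (adjusted p = 0.129 by limma). Without ICI-myocarditis 3 the list had 2 calls, and limma-voom made 7.

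Of 12 genes that T cells induce or use upon costimulation, 11 were tested and 5 called higher, 0 lower, with a median of 0.54. Among all tested genes 11.7% were called higher. Myc rose by 2.07 (adjusted p = 0.00495 by limma) and Tbx21, the factor of type 1 T cells, by 4.49 (adjusted p = 0.00716 by limma). Il2 was not tested, at 0 to 2.23 normalized counts in controls and 3.07 to 4.58 in ICI-myocarditis. It was chosen after its values were seen. Without control 3, or without ICI-myocarditis 3, the list had 2 calls, and without ICI-myocarditis 2 it had 3.

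Chromosomal context was read from the nearest tested protein-coding gene of RefSeq on each side of the 9, some of which lie far away. Cd28 (chr1:60716800-60773359), Ctla4 (chr1:60887000-60915832) and Icos (chr1:60977927-61000320) lie in a row on the plus strand of chromosome 1, and all of them rose. On the outer sides of this row Raph1, 179 kb from Cd28, did not pass (log2 fold change 0.08, adjusted p = 0.832 by limma). Pard3b, 638 kb from Icos, fell (-0.73, adjusted p = 0.0321 by limma). Pdcd1 (chr1:94038305-94052553, minus strand) lies between Gm6086, 26.8 kb away, which fell by 1.91 on the log2 scale (adjusted p = 0.0107 by limma), and Fam174a, 1.26e+03 kb away (0.26, adjusted p = 0.662 by limma). Insl6, beside Cd274, was at 1.01 to 13.4 normalized counts in controls and rose, to between 31.2 and 68.6 in ICI-myocarditis (3.23, adjusted p = 0.0136 by limma), and C030046E11Rik, on the other side of Pdcd1lg2, gave -0.32 (adjusted p = 0.434 by limma).

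Cd86 (chr16:36603869-36666081, minus strand) lies 27.8 kb from Ildr1, which was at 0 to 34.5 normalized counts in controls and 86.2 to 190.3 in ICI-myocarditis (4.28, adjusted p = 0.0218 by limma). On its other side Ccdc58 lies 477 kb away (-0.24, adjusted p = 0.646 by limma). Cd80 (chr16:38455561-38496335, plus strand) lies between Adprh (-0.10, adjusted p = 0.778 by limma) and Timmdc1 (-0.85, adjusted p = 0.149 by limma), and Icosl (chr10:78069302-78083913, plus strand) between Dnmt3l (0.77, adjusted p = 0.324 by limma) and D10Jhu81e (-1.16, adjusted p = 0.112 by limma).

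Tested genes with the most similar profiles were found by the root mean square distance between log2(normalized count + 1) values over the 7 libraries, each profile centred on its own mean. Nearest to Pdcd1 was Ubd, a ubiquitin-like gene (0.175), then Gbp10 (0.474) and Gbp1 (0.534), members of a family of near-identical genes that may share reads. Nearest to Icos were Cxcr3, a chemokine receptor of activated T cells (0.219), the lymphocyte factor Ikzf3 (0.241) and Ipcef1 (0.254). Ctla4 was closest to Etv4 (0.124), Btk (0.13) and Tifab (0.131), and Cd28 to Rnf149 (0.12), Ctsc (0.172) and Pla2g4a (0.183). Cd274 was closest to Rasal3 (0.205), the interferon-inducible Gbp2 (0.21) and Slfn1 (0.21), while Pdcd1lg2 had no close match, the nearest being Mab21l3 (0.617), Timp1 (0.627) and Tubb3 (0.659). Cd80 was closest to Rnf180 (0.118), Dtx3l (0.149) and Lgals3bp (0.153), Cd86 to Slfn2 (0.117), Psat1 (0.151) and Hist1h2bm (0.187), and Icosl to Cpeb1 (0.0784), Cep192 (0.0826) and Plxnc1 (0.1).

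Within the family the most similar pair of profiles was Ctla4 and Cd86, at a distance of 0.282, followed by Cd28 and Cd86 at 0.32. Ctla4 and Cd28 were 0.483 apart and Cd80 and Cd86 0.473. The adjacent genes Cd274 and Pdcd1lg2 were 1.04 apart, and Pdcd1 and Icosl were the least alike at 3.29. These distances describe 7 libraries that share 1 contrast and carry no test.

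The authors' deposited table gave the same direction for all 9 genes and an adjusted p below 0.05 for 8 of them. In the authors' deposited table Pdcd1lg2 had a log2 fold change of 5.37 (SE 0.629) and an adjusted p of 5.62e-15, while Pdcd1 had 4.33 (SE 1.56) with 0.0315. Icosl had 0.69 with an adjusted p of 0.128 in the authors' deposited table.

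The count of calls over the whole table changed when 1 library was left out, which bears on the background share. It was 2397 with all 7 libraries, 1508 without control 1, 1298 without control 3, 1396 without ICI-myocarditis 2 and 986 without ICI-myocarditis 3, and 3340 without control 2. The 8 called genes of the family passed without each library in turn, with Cd80 closest to the threshold (adjusted p = 0.0485 by limma without ICI-myocarditis 3).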

How the data were processed

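Total RNA from 7 mouse hearts was sequenced from stranded libraries, paired-end. The submitters' processing notes name STAR 2.7.3 and GRCm38 (mm10), and the counting program, annotation and strand setting are not given in the sources used here. The deposited signal per library is a gene read count divided by 1 size factor per library, made by the authors, as the values show. The authors' deposited table also holds, for their own comparison, p-values, a score that serves as test statistic, and a log2 fold change and its error, per the file headers. Read counts were recovered by dividing each column by its smallest step, which gave whole numbers for 100% of values within 0.01, although for control 1 the step of 1.008 is so near 1 that this is a weaker sign. The 27 rows whose names had become dates held 0.143% of reads.

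limma 3.58.1 (R 4.3.3, trended and robust empirical Bayes) was fitted to log2(normalized count + 1) of genes that reached 10 normalized counts in 3 or more libraries, with Benjamini-Hochberg adjustment over all of them and a threshold of 0.05. A gene low in controls, such as Pdcd1 or Pdcd1lg2, could pass this filter through the 3 ICI-myocarditis libraries alone. Alternatives were edgeR 4.0.16 and DESeq2 1.42.0 on recovered reads, limma-voom, other scalings, pseudocounts and filters, a replicate block and each library left out. The limma, edgeR and limma-voom fits were tested on simulated data. The genes and lists were chosen with earlier results of these data known. Named genes were the 9, their relatives, of each signalling list the 2 called genes with the lowest p and the one with the largest change, chromosomal neighbours, nearest profiles and markers; a few genes that met this rule are not reported here. Current symbols were matched to older ones through RefSeq synonyms. No molecular identifiers are named in the labels, so reads can be copies of 1 molecule.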

Additional observations from a re-analysis of the deposited data

How the results depend on the processing

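The 8 called genes of the family kept their direction and their side of the threshold in every alternative, except that Pdcd1 missed it with edgeR on recovered reads (log2 fold change 4.29, adjusted p = 0.0529). Icosl passed without control 2 (0.94), and over the libraries left out in turn its value ran from 0.52 to 0.94. The count of 2397 called genes became 2075 with edgeR and 3441 with DESeq2 on recovered reads, 4014 with limma-voom and ran from 986 to 3340 over the libraries left out. Icos over CD3 genes changed sign with a pseudocount of 5 (-0.13), with 1 reference gene (-0.95), with the replicate block and without control 4 (-0.09 in both). Cd86 over Cd80 did so without control 1 (-0.13) and without ICI-myocarditis 1 (-0.17), Cd80 over macrophage genes with the block and without control 4 (-0.01 in both) and Cd86 over macrophage genes without ICI-myocarditis 1 (-0.04). With Cd3e alone as the reference Pdcd1 went from 2.16 to 0.93, Cd28 from -2.66 to -3.88 and Ctla4 from -1.99 to -3.21. With Csf1r alone Icosl went from -1.04 to -0.58, Cd274 from 1.88 to 2.33 and Pdcd1lg2 from 3.26 to 3.72. Scaling by library size only moved the median log2 fold change of all genes from -0.02 to 0.14, and all 8 calls held. Same-numbered control and ICI-myocarditis libraries did not deviate together (correlations of -0.271, -0.206 and -0.0784). Differently numbered libraries ran from -0.477 to 0.451. No pairing by number was thus seen, although so few values cannot exclude it. With the replicate block 1780 genes were called, and no call among the 9 genes changed (Pdcd1 5.88, Icosl 0.52), while calls among the relatives and among the costimulation targets each went from 5 to 3. Control 4 has no partner in the block, so the block's fold changes and ratio differences equal those without control 4. Depth limits Pdcd1, Icos and Pdcd1lg2 in controls, at 2 to 16 reads outside control 2. Over all alternatives the relatives had 0 to 5 calls, the genes below CD28 7 to 11, the partners of CTLA-4 and PD-1 2 to 6, the PD-1 ligand regulators 2 to 7 and the costimulation targets 2 to 6. No ratio passed adjustment under another pseudocount or reference, which a single ratio could not have done with so few splits. Leaving out 1 library was not tested for ratios because fewer splits remain.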
